A study of Mus musculus with 2 samples.

Results

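A set of 8 genes of the CXCR2 and CXCR4 chemokine axis was followed in CD45+ cells of B16F10 tumors, B16F10 being a transplantable mouse melanoma line. They are the CXCR2 ligand genes Cxcl1, Cxcl2, Cxcl3 and Ppbp, the receptor gene Cxcr2, the receptor gene Cxcr4 with its ligand gene Cxcl12, and Csf3r, the receptor gene for granulocyte colony-stimulating factor. They were chosen by symbol from the 27998 genes of the feature table, with earlier results of these data known. Tumors grew under the skin of C57BL/6 hosts that were either Usp18f/f, with both copies of the interferon-pathway gene Usp18 flanked by recombination sites, or Usp18f/f LysM-Cre, in which Cre made from the Lyz2 locus was to delete Usp18 in myeloid cells. Both groups thus carried the floxed Usp18 alleles, both received the same tumor line, and the control had no Cre. LysM-Cre acts in monocytes and macrophages and also in neutrophils. At day 14 the live CD45+ cells of 4 tumors were pooled per group and made into 1 droplet library of 3' cDNA, counted by unique molecular identifiers (UMIs). With 1 pool in each group no test between the groups could be made, and all intervals below are 95% intervals that cover counting error only.

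CXCR2 is the main chemokine receptor of mouse neutrophils, and its ligands, made by macrophages, stromal cells and neutrophils themselves, draw these cells from blood into inflamed tissue and tumors. Ppbp encodes the precursor of a further CXCR2 ligand and is best known as a platelet gene. CXCR4 and its ligand CXCL12 hold immature neutrophils in the bone marrow and act on many other leukocytes, B cells among them, while G-CSF, through Csf3r, drives neutrophil production and release.

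The 4 ligand genes lie in the same region of mouse chromosome 5, which is why the stretch upstream of each is shown. In GRCm38 coordinates from GENCODE, on the plus strand, Ppbp spans chr5:90768518-90770063, Cxcl3 chr5:90786103-90789600, Cxcl1 chr5:90891241-90893115 and Cxcl2 chr5:90903871-90905938. Cxcr2 lies at chr1:74153989-74161246, Cxcr4 at chr1:128588199-128592293 on the minus strand, Csf3r at chr4:126024550-126044440 and Cxcl12 at chr6:117168535-117181367. The sequences below are from RefSeq (GRCm38.p6), plus strand, 5′ to 3′, and stop before the transcription start: chr5:90785961-90786100 for Cxcl3, chr5:90891105-90891240 for Cxcl1, chr5:90903759-90903870 for Cxcl2 and chr5:90768378-90768517 for Ppbp. Capitals mark GGGAATTTCCC, the longest run of letters that the 250 bases upstream of Cxcl1, Cxcl2 and Cxcl3 have in common. It has the form of a site for NF-kB, the main inflammatory transcription factor of myeloid cells.
Cxcl3: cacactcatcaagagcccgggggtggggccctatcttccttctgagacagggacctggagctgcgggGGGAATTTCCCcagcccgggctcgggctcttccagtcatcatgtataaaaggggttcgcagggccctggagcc
Cxcl1: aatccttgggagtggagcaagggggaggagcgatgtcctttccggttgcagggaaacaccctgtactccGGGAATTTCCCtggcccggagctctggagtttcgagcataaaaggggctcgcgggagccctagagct
Cxcl2: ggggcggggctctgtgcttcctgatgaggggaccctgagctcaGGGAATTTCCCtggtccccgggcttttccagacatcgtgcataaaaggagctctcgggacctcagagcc
Ppbp: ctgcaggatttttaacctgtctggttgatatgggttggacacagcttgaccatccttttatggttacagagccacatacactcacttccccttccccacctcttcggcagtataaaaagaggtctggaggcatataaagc
The run begins 73 bases before the RefSeq start of Cxcl3, 71 before that of Cxcl1 and 97 before that of Cxcl2. It is not among the letters of the Ppbp window. Searched on both strands, it is present in 14 of 32851 RefSeq promoters of the same 300 bases, which run from 250 before to 50 after the start (0.0426%). Of the 8 genes followed here, 3 hold it, the same 3 that it was read from. A match describes letters only, and no binding was measured.

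The control library held 7754 barcodes and the library labelled knockout 6063, with 43412346 and 48167632 UMIs and medians of 2600 and 4455 UMIs per barcode. After filters on detected genes, mitochondrial UMIs and doublets, 6652 and 5447 cells were kept. They formed 28 clusters, 26 of which were named after markers as 11 classes, "like" in each name meaning that it rests on transcripts alone. The libraries shared 8 barcode sequences, 5 of them among kept cells. The labels were checked in mononuclear phagocytes, which are the monocyte-like and macrophage-like cells together. Levels are in CPM, which scales the UMIs of a gene to 1000000 UMIs in the cells summed. Usp18 was 18.3 CPM in the control and 99.2 CPM in the library labelled knockout, opposite to the label, although 3' counts do not show which exons a transcript holds and the deleted exons are not given in the sources used here. Lyz2, the locus that carries Cre, went from 9522 to 17.9 CPM. The pools also differed in a way the labels do not give. Among kept cells of the control, 1479 had Xist and no Y-linked UMI and 2575 the reverse, against 3503 and 566 in the library labelled knockout.

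Over all kept cells Cxcr2, Csf3r and Ppbp were the members that separated the libraries most. Cxcr2 had 786 UMIs in the control and 77 in the library labelled knockout, or 21.5 CPM (19.98 to 23.01) against 1.79 CPM (1.41 to 2.24), which is 11.97-fold lower (9.47 to 15.3). Csf3r was 60.2 against 27.2 CPM, 2.21-fold lower (2.06 to 2.37). Ppbp was 69.7 against 29.0 CPM, 2.40-fold lower (2.24 to 2.57). These 3 were lower in the library labelled knockout by more than 2-fold on the log2(CPM + 5) scale, which is the scale of every log2 ratio below. Over all 14284 genes with at least 20 UMIs, 0.371% were lower and 0.525% higher by that rule. The median log2 ratio of the 7 tested members was -0.65, beside -0.03 over all genes tested.

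The other members differed less. Cxcl2 was 577 against 365 CPM, a log2 ratio of -0.65. Cxcl3 was 119.7 against 96.5 CPM (-0.30) and Cxcr4 was 52.4 against 34.6 CPM (-0.54). Cxcl1 was scarce and nearly level, at 3.55 (2.97 to 4.21) and 3.72 CPM (3.17 to 4.35). Cxcl12, which is made mainly by stromal cells, had 0 UMIs in every deposited barcode of both libraries, which allows up to 0.0691 and 0.0623 CPM, so the CXCR4 ligand was not detectable in these sorted cells.

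Neutrophil-like cells made up 539 of the 6652 kept cells of the control, or 8.10% (7.46 to 8.78, Clopper-Pearson), and 33 of the 5447 of the library labelled knockout, or 0.606% (0.417 to 0.85). The share was 13.4-fold lower in the latter. The 8 members were left out of the markers and of the clustering, so their levels in the class did not define it. All 16 neutrophil markers of the naming list were higher in it than in mononuclear phagocytes of the same library. The class was named by these same markers, so this describes it and is no separate check of the name. Among them S100a8 was 25809 against 54.4 CPM in the control and 31997 against 5.99 CPM in the library labelled knockout. Ly6g, which defines mouse neutrophils in flow cytometry, was sparse, with 27 UMIs in the control class and 3 in the other. Sums of a gene over a library cannot tell fewer cells of a type from less RNA per cell, so levels within the class follow.

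**Figure D1:**
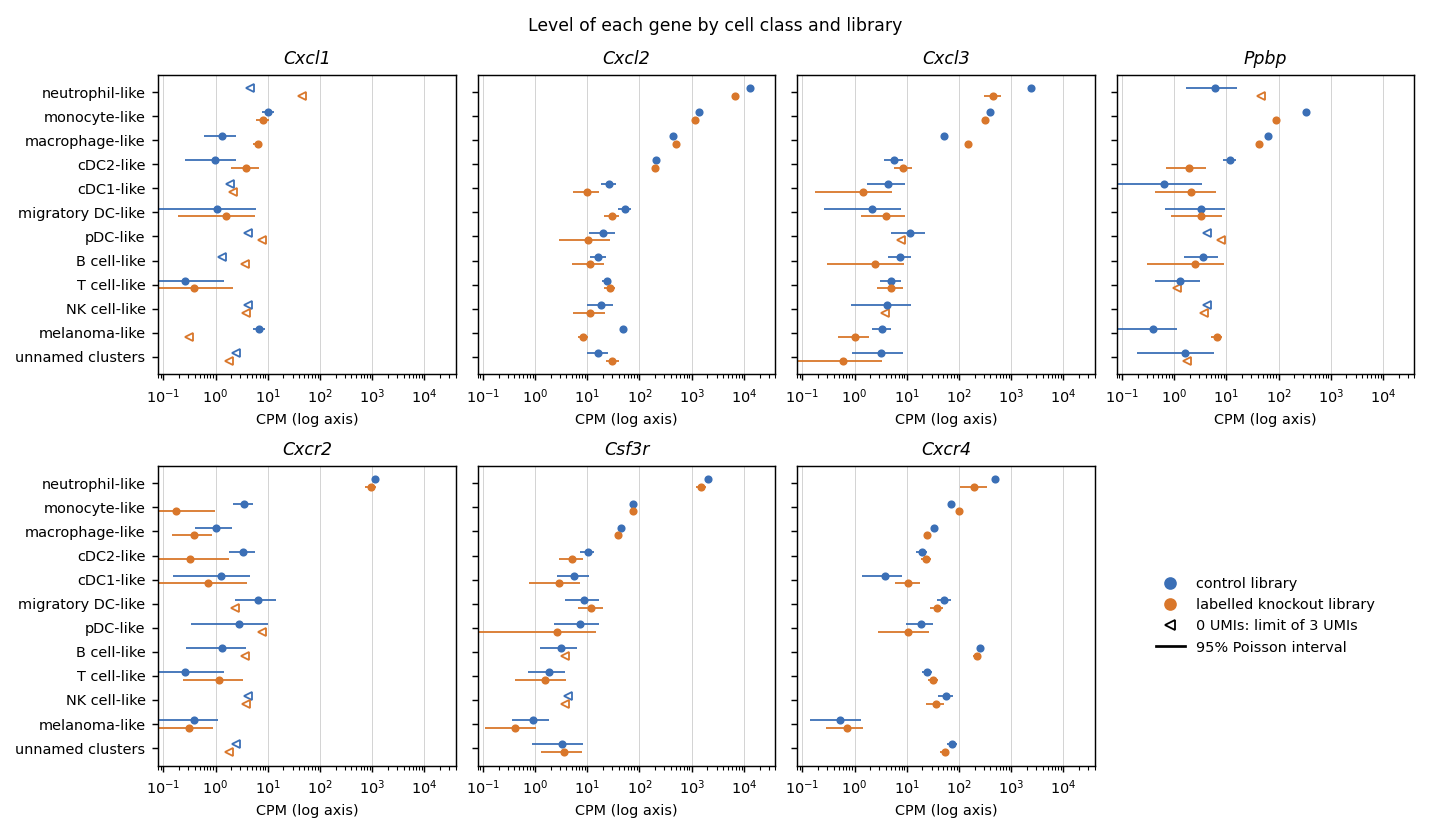
Level of 7 members in 12 cell classes, as CPM on a log axis, with the control library in blue and the library labelled knockout in orange; points are sums over all cells of a class, bars are 95% Poisson intervals, and open triangles are classes with 0 UMIs, set at the limit of 3 UMIs. Cxcr2 stood at 1127 and 941 CPM in neutrophil-like cells and at or below 6.50 CPM elsewhere, while Ppbp was highest in monocyte-like cells and Cxcr4 was spread over most classes.

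Cxcr2 transcripts lay mostly in neutrophil-like cells in both libraries. Within neutrophil-like cells it was 1127 CPM (1047 to 1212) in the control and 941 CPM (721 to 1206) in the library labelled knockout, and these intervals overlapped. A Cxcr2 UMI was found in 54.7% and 60.6% of the class, at median depths of 1129 and 1677 UMIs. In B-cell-like cells, which should lack it, the shares were 0.208% at a median depth of 1494 UMIs and 0 of 440 cells at 1760. Thinning each cell to 1000 UMIs, which left out 189 and 3 shallower neutrophil-like cells, gave 50.9% and 53.3%. The class held 92.5% of the Cxcr2 UMIs of the control (727 of 786) and 80.5% of those of the library labelled knockout (62 of 77).

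Csf3r was highest in the same class and second highest in mononuclear phagocytes. Neutrophil-like cells had 2090 CPM (1980 to 2204) in the control and 1517 CPM (1234 to 1845) in the other library, with non-overlapping intervals. In mononuclear phagocytes Csf3r was 59.2 (55.1 to 63.6) and 48.5 CPM (45.5 to 51.5), and 30.7% and 28.0% of these cells had a UMI, against 0.486% and 0 of 440 B-cell-like cells. Neutrophil-like cells held 61.2% of Csf3r UMIs in the control and 8.55% in the library labelled knockout, where mononuclear phagocytes held 87.2%.

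Cxcl2 was also highest in neutrophil-like cells, and so was Cxcl3 in the control. Cxcl2 stood at 13095 CPM (12817 to 13377) in the control class and 6767 CPM (6153 to 7425) in the class of the library labelled knockout. Cxcl3 stood at 2372 (2255 to 2494) and 440.0 CPM (295 to 632). Shares of neutrophil-like cells with a UMI were 84.6% and 75.8% for Cxcl2, against 2.5% and 2.05% of B-cell-like cells. For Cxcl3 they were 48.2% and 15.2%, against 1.11% and 0.455%. One cell held 18 of the 29 Cxcl3 UMIs of the 33 neutrophil-like cells of the library labelled knockout, and the interval of that class overlapped the 314 CPM (299.5 to 329) of monocyte-like cells. Cxcl1 had 0 UMIs in this class in both libraries, which allows up to 4.65 and 45.5 CPM, and Ppbp had 4 and 0.

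**Figure D2:**
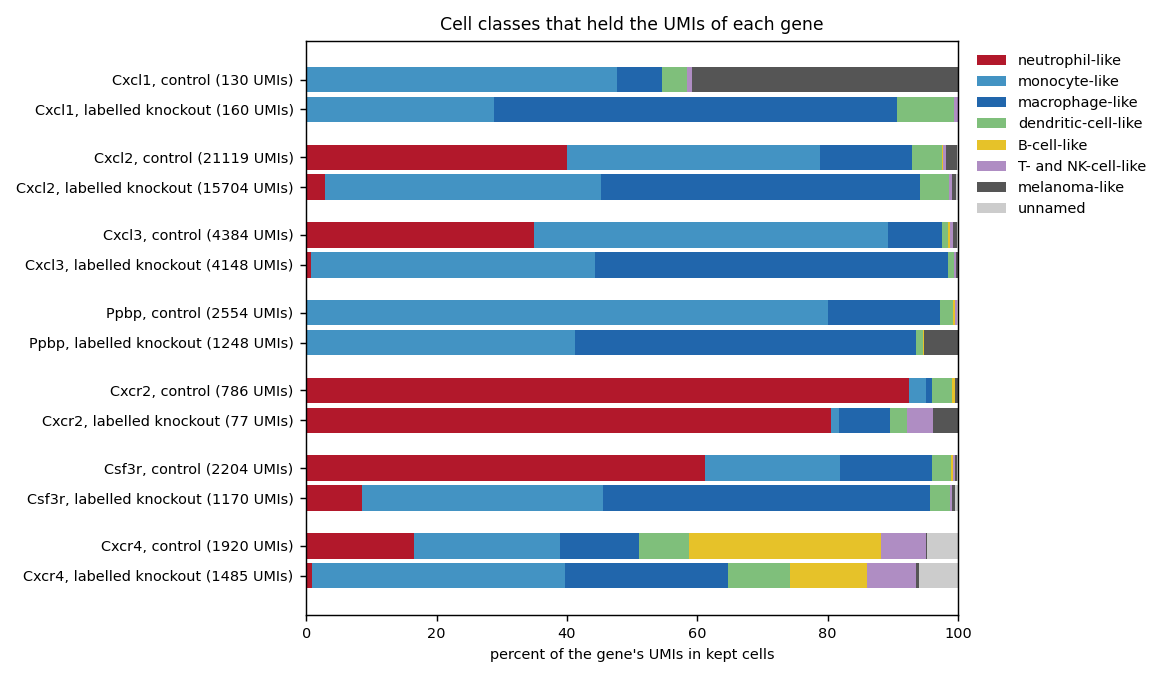
Percent of each member's UMIs held by each group of cell classes, with 1 bar per gene and library and the UMI total of the gene in kept cells beside its name. Neutrophil-like cells (red) held 40.0% of Cxcl2 and 34.9% of Cxcl3 UMIs in the control and 2.84% and 0.699% in the library labelled knockout, where mononuclear phagocytes (blues) held 91.4% and 97.9%.

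The neutrophil-like class joined a pair of clusters that differed in ligand and receptor levels. Cluster 7 was led by Hcar2, G0s2, Csf1 and Mmp9, and cluster 24 by the granule and alarmin genes Retnlg, Ngp, S100a9 and S100a8. In the control, Cxcl2 was 15437 CPM (15107 to 15772) in cluster 7 and 1267 CPM (1062 to 1499) in cluster 24. Cxcl3 was 2841 CPM in cluster 7 and had 0 UMIs in cluster 24, which allows up to 28.1 CPM. The receptors ran the other way, with Cxcr2 at 997 (915 to 1085) and 1783 CPM (1538 to 2055) and Csf3r at 1965 (1848 to 2087) and 2721 CPM (2417 to 3053). Thus the cluster richer in ligand transcripts was the one poorer in Cxcr2 and Csf3r transcripts. Cxcr4, at 479 and 544 CPM, had overlapping intervals.

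In the library labelled knockout cluster 7 had 20 cells and cluster 24 had 13, and the order was the same for Cxcl2 and Csf3r. Cxcl2 was 11244 CPM (10193 to 12374) in cluster 7 and 942 CPM (621 to 1371) in cluster 24. Csf3r was 698 (456 to 1022) and 2583 CPM (2028 to 3243). Cxcr2 was 671 (434 to 990) and 1292 CPM (909 to 1780), with intervals that overlapped. Cluster 7 made up 86.3% of the class in the control and 60.6% in the library labelled knockout, so class levels in the second library weigh cluster 24 more. Within each of these clusters Cxcr2 was lower in the library labelled knockout than in the control, with intervals that overlapped. Within single cells of the control class, a Cxcl3 UMI was found in 55.5% of cells with a Cxcl2 UMI and in 8.43% of those without, at median depths of 1136 and 1079 UMIs.

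**Figure D3:**
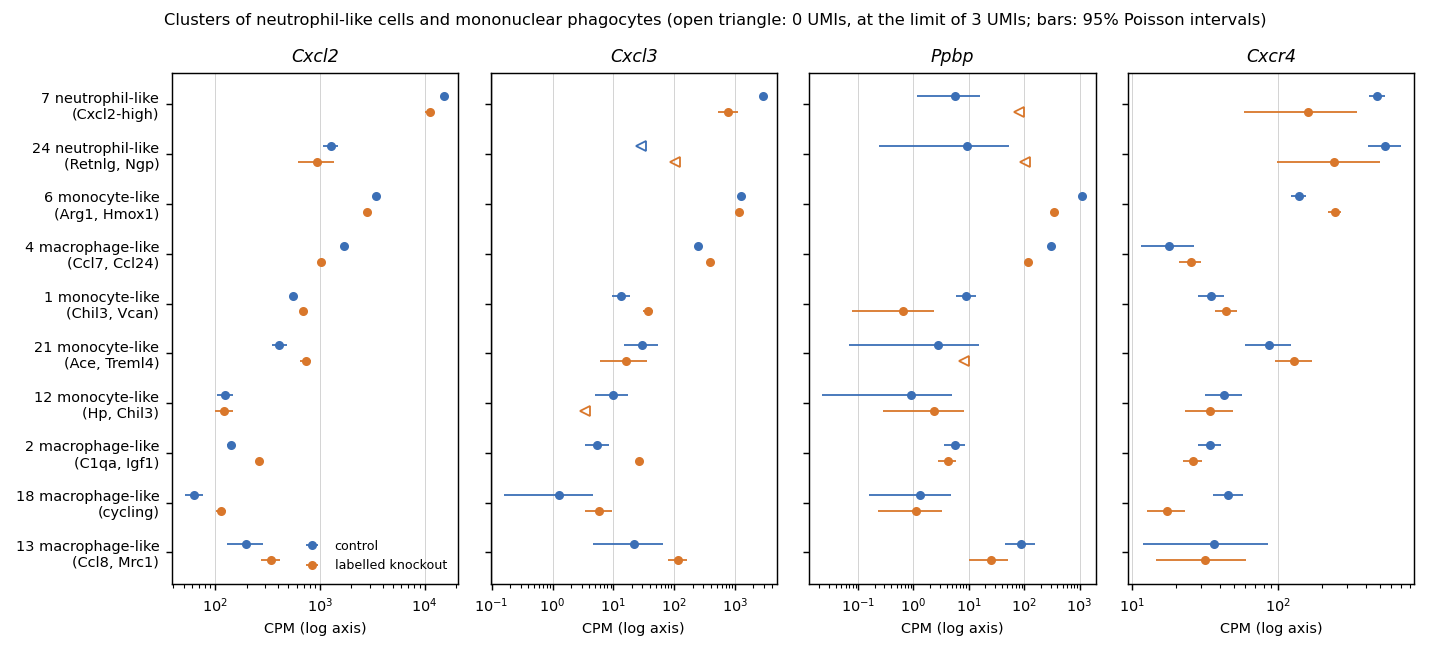
Cxcl2, Cxcl3, Ppbp and Cxcr4 in the 2 neutrophil-like clusters and the 8 clusters of mononuclear phagocytes, as CPM on a log axis with 95% Poisson intervals, control in blue and library labelled knockout in orange; open triangles are 0 UMIs at the limit of 3 UMIs. Among the clusters of mononuclear phagocytes, cluster 6 had the highest level of each of the 4 genes in both libraries.

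Neutrophil-like cells were then left out, a step added once the values were known. Cxcl2 was then 352 CPM in the control and 356 CPM in the library labelled knockout, with a ratio of 1.0099 (0.986 to 1.03). Csf3r was 23.8 and 24.9 CPM, a ratio of 1.05 (0.957 to 1.15). Cxcl3 turned, from 79.3 to 96.0 CPM (1.21-fold, 1.15 to 1.27). Cxcr2 fell to 1.64 and 0.350 CPM, from 59 and 15 UMIs. Ppbp stayed apart at 70.9 against 29.1 CPM, 2.44-fold lower (2.28 to 2.61), the 1 member past 2-fold there, where 0.281% of 14232 genes were lower and 0.506% higher by that rule. These levels depend on the mix of the cells left. Within mononuclear phagocytes, which were 26.3% and 48.1% of kept cells, the ratio was 0.790 for Cxcl2 and 0.818 for Csf3r. The 4 CXCR2 ligands summed were 506 CPM (499 to 513) in the control and 484 CPM (478 to 491) in the library labelled knockout outside neutrophil-like cells. Summed ligand UMIs outside the class were 18206 in the control and 20785 in the library labelled knockout. Set against 539 and 33 neutrophil-like cells, that is 33.8 and 629.8 for each, a gap that mostly restates the cell counts. For each cell outside the class the ligand UMIs amounted to 2.98 and 3.84. These are raw counts, not scaled for depth, and kept cells had medians of 2623.5 and 4596 UMIs.

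**Figure D4:**
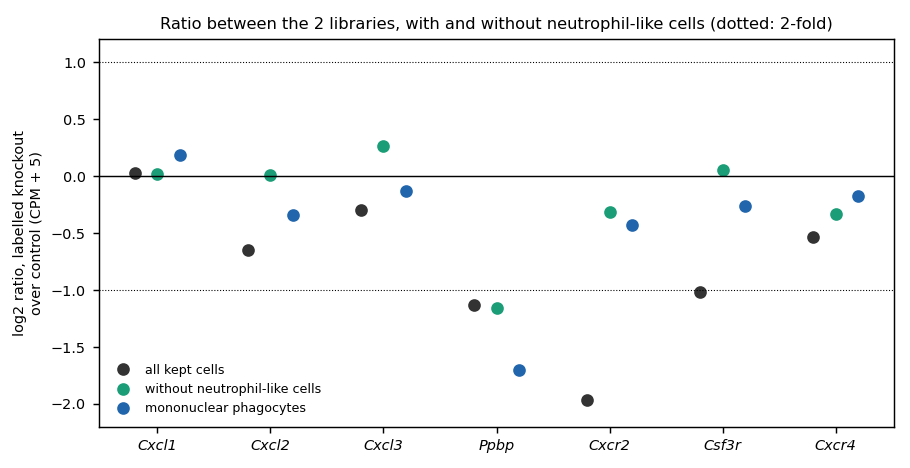
Log2 ratio of each member, library labelled knockout over control, after adding 5 CPM to both, over all kept cells (black), without neutrophil-like cells (green) and in mononuclear phagocytes (blue); dotted lines mark 2-fold and each point is 1 pair of libraries. Cxcl2 and Csf3r went from -0.65 and -1.02 to 0.01 and 0.06 without neutrophil-like cells, and Ppbp stayed at -1.15. In mononuclear phagocytes Cxcl2 and Csf3r were at -0.34 and -0.27.

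Mononuclear phagocytes were the main source of CXCR2 ligand transcripts outside neutrophil-like cells. They made up 26.3% of kept cells in the control (1747 cells) and 48.1% in the library labelled knockout (2622 cells). Of the 7 members tested in them, 1 was lower by more than 2-fold, Ppbp, beside 0.0933% of 11795 genes lower and 0.958% higher. Ppbp was 191 CPM (184 to 199) in the control and 55.5 CPM (52.3 to 58.8) in the library labelled knockout, 3.45-fold lower (3.22 to 3.70). Cxcl2 was 863 (847 to 879) and 682 CPM (671 to 693), and Cxcl3 was 212 (204 to 220) and 193 CPM (187 to 199). Cxcl1 was 5.48 (4.28 to 6.92) and 6.89 CPM (5.81 to 8.10), with overlapping intervals. Cxcr4 was 51.4 and 45.1 CPM. The median log2 ratio of the 7 members was -0.27, beside -0.02 over all genes tested.

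These ligand transcripts sat in few cells. In mononuclear phagocytes a Cxcl2 UMI was found in 43.2% of control cells and 42.5% of cells of the library labelled knockout, and 50% of the UMIs were held by 69 and 119 cells. For Cxcl3 the shares were 12.8% and 8.89%, with 50% of the UMIs in 30 and 16 cells. For Ppbp they were 6.53% and 3.62%, with 50% in 13 and 7 cells. B-cell-like cells had a Ppbp UMI in 0.278% and 0.455%. At median depths of 6309 and 5935 UMIs per mononuclear phagocyte and 1494 and 1760 per B-cell-like cell, thinning to 1000 UMIs gave Ppbp shares of 4.31% and 1.67% in the former. In the latter it gave 0.216% and 0.474%. The differences in summed level of Cxcl3 and Ppbp thus rest on few cells per library.

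Cluster 6, a monocyte-like cluster, led all clusters of mononuclear phagocytes for these genes. Ppbp is itself its leading gene, followed by Arg1, which encodes arginase, the heat shock genes Hspa1a and Hspa1b, and Hmox1, Vegfa and Ndrg1, genes known to rise with heme or low oxygen. Ppbp took no part in the clustering. It had 312 cells in the control and 275 in the library labelled knockout. Cxcl2 was 3464 (3380 to 3550) and 2823 CPM (2738 to 2910) there. Cxcl3 was 1263 (1212 to 1315) and 1146 CPM (1092 to 1202). Cxcl1 was 31.5 (23.9 to 40.7) and 27.2 CPM (19.4 to 37.0). Ppbp was 1093 (1046 to 1142) and 347 CPM (318 to 378), a log2 ratio of -1.64. The share of its cells with a Ppbp UMI was 23.1% and 6.18%, and that with a Cxcl3 UMI was 49.0% and 18.5%. In the library labelled knockout 2 of its cells held 50% of its Ppbp UMIs and 5 held 50% of its Cxcl3 UMIs, against 9 and 25 in the control. Cxcr4 went the other way, at 139 (122 to 157) and 247 CPM (222 to 273), with a UMI in 39.7% and 51.6% of cells.

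Outside cluster 6 the ligands differed by cluster. Cluster 4, a macrophage-like cluster led by the chemokine genes Ccl7 and Ccl24 and by interferon-induced genes, had 154 and 627 cells. Its Cxcl2 was 1716 and 1033 CPM (log2 ratio -0.73), its Ppbp 303 and 116 CPM (-1.35), and its Cxcl3 249.98 and 381 CPM (0.60). Cluster 2, led by the complement genes C1qa, C1qb and C1qc and by Igf1, had higher Cxcl2 and Cxcl3 in the library labelled knockout. Its Cxcl2 was 143 and 261 CPM (0.84) and its Cxcl3 5.45 and 26.8 CPM (1.61). Its Ppbp was 5.70 and 4.14 CPM, with a ratio of 0.725 (0.403 to 1.32). A pair of its cells held 50% of those 188 Cxcl3 UMIs. Its Cxcl1 UMIs numbered 0 in the control and 42 in the library labelled knockout, in 19 of 491 cells. Cluster 1, led by Chil3 and Vcan, had Cxcl2 at 560 and 696 CPM (0.31), Cxcl3 at 13.4 and 37.7 CPM (1.21) and Ppbp at 9.07 and 0.655 CPM, the last from 25 and 2 UMIs. Over all cells of a cluster, Ppbp was thus lower in the library labelled knockout in clusters 6, 4 and 1, whereas Cxcl3 was higher in clusters 4, 2 and 1. In cluster 4 both turned with the kind of cell by sex-linked transcripts: Ppbp was 13.7 (3 UMIs in 28 cells) and 124 CPM in its cells with Xist, and Cxcl3 was 196 and 73.4 CPM in those with Y-linked UMIs. Cluster 4 also held unlike cells. With a 5% mitochondrial limit its interferon-rich part formed a cluster of 3 control cells and 202 cells of the other library, and at resolution 2 one of 5 and 276. Leaving out cluster 6, also a step added later, turned the log2 ratio in mononuclear phagocytes to 0.27 for Cxcl2 and 1.57 for Cxcl3, and brought Ppbp to -0.28.

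Because Ppbp is a platelet gene, markers of platelets were read in the same cells. In the control 70 mononuclear phagocytes had 5 or more Ppbp UMIs and held 2412 of the 2479 Ppbp UMIs. In the library labelled knockout 33 such cells held 1072 of 1168. The limit of 5 UMIs was chosen after the values were seen. In these cells Itga2b, Gp9, Gp1bb, Gp5, Clec1b and Tubb1, which mark platelets and megakaryocytes, had 0 UMIs in both libraries, and Treml1 had 1 in the control and 0 in the other. Pf4, a chemokine gene of platelets that macrophages also express, was 8855 and 8803 CPM in them, against 1161 and 1404 CPM in mononuclear phagocytes with no Ppbp UMI. Arg1 was 10221 and 7173 CPM against 666 and 563 CPM. Cd68, a marker of mononuclear phagocytes, was 724 and 688 CPM against 708 and 831 CPM. The Ppbp transcripts thus lay in Arg1-rich cells whose Cd68 was close to that of the rest of the class.

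Cxcl1 was the rarest ligand, and 1 cell set part of its pattern. A single melanoma-like cell of the control held 53 of the 130 Cxcl1 UMIs (40.8%), together with 330 Cxcl2 and 16 Cxcl3 UMIs among 58757 UMIs in all, a depth above the median of 50719 of the 150 melanoma-like cells of the control. In the library labelled knockout the 381 melanoma-like cells had 0 Cxcl1 UMIs, at a median depth of 2747. Melanoma-like cells are not expected in a CD45+ sort, and their expression was therefore not compared further. In the library labelled knockout mononuclear phagocytes held 145 of 160 Cxcl1 UMIs (90.6%), in 55 of 2622 cells. Another melanoma-like cell there held 57 of the 65 Ppbp UMIs of its class.

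Cxcr4 had the widest spread over classes. In the control it was highest in neutrophil-like cells at 489.9 CPM (437 to 547), followed by B-cell-like cells at 251 CPM (230 to 272), and these did not overlap. Natural killer-like cells had 56.2 CPM (40.1 to 76.5), migratory dendritic-like cells 52.0 CPM (38.3 to 68.9) and mononuclear phagocytes 51.4 CPM (47.5 to 55.4), which overlapped each other. T-cell-like cells had 24.4 CPM. In the library labelled knockout the order began with B-cell-like cells at 219 CPM (188 to 254) and neutrophil-like cells at 197 CPM (105 to 337), which overlapped. In B-cell-like cells the ratio was 0.875 (0.734 to 1.04), with a Cxcr4 UMI in 29.7% and 29.5% of cells. Their cells with Xist had 201 and 233 CPM, and those with Y-linked UMIs 257 and 127 CPM, the last from 10 UMIs in 35 cells. With a 5% mitochondrial limit the share of B-cell-like cells with a Cxcr4 UMI differed by -12.8 percentage points. That limit left 81 and 41 B-cell-like cells, against 1441 and 440 as reported. The interval for T-cell-like cells, at 24.4 and 31.8 CPM, also took in no difference (ratio 1.30, 0.958 to 1.77). Because B-cell-like cells held 21.7% of kept cells in the control and 8.08% in the library labelled knockout, their part of all Cxcr4 UMIs went from 29.5% to 11.9%.

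Splitting cells by Xist and Y-linked transcripts changed the direction of the ligand ratios in mononuclear phagocytes. In cells with Xist, Cxcl2 was 638 CPM (433 cells) in the control and 815 CPM (1718 cells) in the library labelled knockout. Those with Y-linked UMIs had 874 (793 cells) and 331 CPM (348 cells). Cxcl3 was 113 and 259 CPM with Xist, against 204 and 39.0 CPM with Y-linked UMIs. Ppbp was 44.7 and 65.6 CPM with Xist, and 193 and 55.2 CPM with Y-linked UMIs. So the lower Ppbp of the library labelled knockout was seen in cells with Y-linked UMIs and not in those with Xist. Cells with neither or both kinds of transcript are outside this split. Mononuclear phagocytes had 2479 Ppbp UMIs in the control and 1168 in the library labelled knockout. Those with Xist held 137 and 893 of them, and those with Y-linked UMIs 1293 and 208. Cells outside the split thus held many of the control's Ppbp UMIs and few of the other library's. Within the control, Ppbp was 4.32-fold (3.62 to 5.19) higher in cells with Y-linked UMIs, and within the library labelled knockout it was 0.841-fold (0.720 to 0.979).

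Cluster 6 also differed in share between these kinds of cells in the library labelled knockout. It made up 16.6% of mononuclear phagocytes with Xist and 16.3% of those with Y-linked UMIs in the control, and 13.7% and 1.15% (4 of 348 cells) in the library labelled knockout. Those 4 cells held 183 of the 208 Ppbp UMIs of the 348. Without cluster 6 the log2 ratios were 1.00 for Cxcl2, 2.63 for Cxcl3 and 2.45 for Ppbp with Xist. They were -0.89, -1.48 and -2.01 with Y-linked UMIs. Within cluster 6, cells with Xist had Ppbp at 326 and 228 CPM, Cxcl2 at 2988 and 2747 CPM and Cxcl3 at 749.7 and 1120.1 CPM. Its cells with Y-linked UMIs had Ppbp at 1164 and 6119 CPM, Cxcl2 at 3341 and 8827 CPM and Cxcl3 at 1299 and 3778 CPM, the second of each pair from the 4 cells alone. The log2 ratio of -1.64 for Ppbp in the whole cluster was met in neither of these kinds of cell. The split leaves out cells of the cluster with neither or both kinds of transcript. The cluster had 2014 Ppbp UMIs in the control and 511 in the library labelled knockout. Its cells with Xist held 124 and 292 of them, and those with Y-linked UMIs 1050 and 183. Cells outside the split thus held many of the control's Ppbp UMIs and few of the other library's. The neutrophil-like share was lower in the library labelled knockout in both kinds of cells, though it rests on few cells there. With Xist it was 2.37% (35 cells) and 0.285% (10 cells), and with Y-linked UMIs 4.97% (128 cells) and 0.530% (3 cells). Most of the 539 neutrophil-like cells of the control are outside the split. Cxcr2 over all kept cells was also lower in both kinds of cells, at 6.90 and 0.647 CPM and at 12.8 and 2.33 CPM. Whether these kinds of cells come from different mice of a pool is not given, so the genotype, the mice and the sex-linked kinds of cells cannot be told apart for the ligands.

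**Figure D5:**
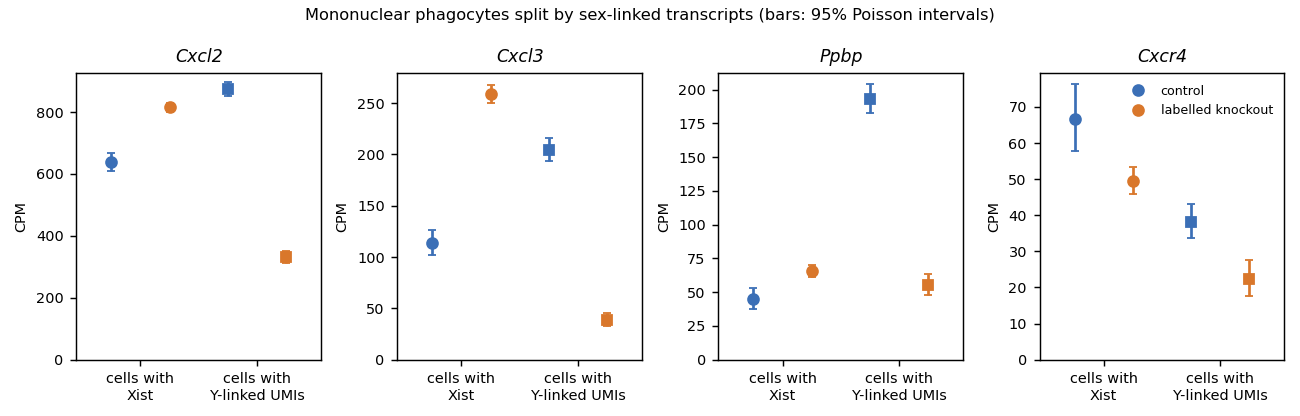
Levels of 3 ligand genes and Cxcr4 in mononuclear phagocytes with Xist and no Y-linked UMI (circles) or the reverse (squares), as CPM from 0, control in blue and library labelled knockout in orange, with 95% Poisson intervals. Cxcl2, Cxcl3 and Ppbp were higher in the library labelled knockout in cells with Xist and lower in cells with Y-linked UMIs, and Cxcr4 was lower in both.

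Genes that work beside the members were read from 6 lists in mononuclear phagocytes, where 0.958% of the 11795 genes tested were higher and 0.0933% lower by more than 2-fold. Of 9 tested CXC ligands and further receptors, 1 was higher by more than 2-fold and 0 lower: Cxcl10, an interferon-induced ligand of CXCR3, at 96.7 and 624 CPM (log2 ratio 2.63). Pf4 was 1525 and 1711 CPM there, and Cxcl16 218 and 219.7 CPM. Of 15 tested genes of granulopoiesis and the cytokines upstream, 1 was higher and 0 lower: Il1rn, the interleukin 1 receptor antagonist, at 89.4 and 227 CPM (1.30). Il1b was 222 and 282 CPM and Il17ra 116 and 78.5 CPM. Of 16 other chemoattractants and receptors, 2 were higher and 0 lower: Ccl4, at 268 and 638 CPM (1.23), and Ccl5, at 43.3 and 148 CPM (1.67). Ccl3 was 201 and 253 CPM.

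Adhesion and egress genes (13 tested) and genes of signalling below CXCR2 and CXCR4 (15 tested) had 0 past 2-fold in either direction. The integrin subunit genes Itga4, at 191 and 118 CPM, and Itgal, at 123 and 79.4 CPM, had log2 ratios of -0.68 and -0.60. Gnai2, the inhibitory G protein subunit below both receptors, was 1047 and 1049 CPM. Of 15 genes that share NF-kB feedback or an early response with Cxcl1 and Cxcl2, 2 were higher and 0 lower: the monocyte chemoattractants Ccl2, at 1429 and 2959 CPM (1.05), and Ccl7, at 564 and 1682 CPM (1.57). Nfkbia was 269.6 and 323 CPM, Ptgs2 60.2 and 77.0 CPM and Fos 834 and 589 CPM. The medians of the 6 lists ran from -0.03 to 0.22, beside -0.02 over all genes tested. Ccl7, Ccl2 and Cxcl10 were among the leading genes of cluster 4, which had 154 cells in the control and 627 in the library labelled knockout.

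Genes most like each member were ranked by the Pearson correlation of log levels over 23 points, the cell classes of both libraries, among 12131 genes. The 33 neutrophil-like cells of the library labelled knockout were under the limit of 50 cells, so the class entered as 1 point, that of the control. The points share libraries and depths, and the ranking is a description. Cxcr2 was nearest to the granule genes Ltf and Camp and to Il1f9 (r = 0.99, 0.98 and 0.98). Cxcl2 was nearest to P2ry2, Abcd2 and Clec5a (0.97, 0.97 and 0.96), and Cxcl3 to Mmp8, P2ry2 and Trem3 (0.97, 0.97 and 0.96). Csf3r was nearest to Ankrd66, Sgms2 and Kcnj2 (0.97, 0.97 and 0.96). Ppbp was nearest to Tnfsf13os, Hpgd and Arg1 (0.94, 0.93 and 0.91). Cxcr4 was nearest to Ppp1r15a, Bcl10 and Tgif1 (0.91 each), and Cxcl1 to Ctsk, Adamtsl5 and Zfyve9 (0.88, 0.86 and 0.83).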

How the data were processed

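Deposited values were whole-number UMI counts. The authors made them with Cell Ranger 3.0.1 against mm10, per the submitters' processing notes. The lowest total of a deposited barcode was 500 UMIs in each library. Coordinates came from GENCODE (GRCm38), in which 27645 of the 27998 feature identifiers (98.7%) were found, and upstream sequences from RefSeq (GRCm38.p6). All 8 members have an entry in the RefSeq promoter table. The members, gene lists and markers were chosen with earlier results of these data known.

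Barcodes under 200 genes or over 10% mitochondrial UMIs were dropped, and the top Scrublet scores of each library were removed as doublets at 0.8% per 1000 barcodes (481 and 294 barcodes). Both libraries were clustered together in Python 3.11.15 with scanpy 1.11.5 and leidenalg 0.10.2 on 2000 variable genes, 30 principal components and 15 neighbours at resolution 1. The members, Usp18, Lyz2, 50 interferon-induced genes, and Xist, Y-linked, mitochondrial and other technical genes were left out, 924 genes in all. A cluster took the class with the highest mean marker fold among classes with at least 3 detected markers. It was left unnamed where its 10 leading genes held more markers of another class, monocyte and macrophage markers not barring each other. Leading T-cell genes in a cluster of another class, or natural killer receptor genes in a T-cell cluster, also left it unnamed. Details of this rule were settled after the clusters were seen. One unnamed cluster mixed T and natural killer genes and the other mixed dendritic and regulatory T genes. Monocyte-like and macrophage-like cells were joined because the border between them moved between clusterings.

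UMIs were summed per class and library and given as CPM with exact Poisson intervals. Ratios carry exact conditional binomial intervals and were given for classes of at least 50 cells in each library, so none was given for neutrophil-like cells. Log2 ratios are on the log2(CPM + 5) scale, for genes of at least 20 UMIs over both libraries, and a gene was counted as higher or lower past 2-fold (log2 ratio of 1). Shares carry Clopper-Pearson intervals, and a count of 0 allows 3 UMIs. PCR and droplet effects are not in these intervals. The genes that could be named were the members, the 6 lists and the markers, the 10 leading genes of a cluster, and the 3 genes nearest to each member. The ratio step was tested on simulated counts.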

Additional observations from a re-analysis of the deposited data

Results flagged for a closer look

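Comparisons of a member in a cell class with at least 50 cells of each kind in each library were searched for opposite ratios whose counting intervals both excluded no difference. In 7 of them the log2 ratio of library labelled knockout over control was of opposite sign between Xist cells and cells that had Y-linked UMIs. Other pairs of opposite sign, such as Cxcl1 in mononuclear phagocytes at -0.33 with Xist and 0.25 with Y-linked UMIs, had an interval that took in no difference. None of these differences was tested, because each group is 1 pool. In mononuclear phagocytes the ratios were 0.35 with Xist and -1.39 with Y-linked UMIs for Cxcl2, 1.16 and -2.25 for Cxcl3, and 0.50 and -1.72 for Ppbp. Over all kept cells they were 0.14 and -1.18 for Cxcl2, 0.78 and -1.84 for Cxcl3, and 0.55 and -0.93 for Ppbp. Cxcl1, with 89 and 128 UMIs in cells with Xist and 24 and 17 with Y-linked UMIs, had -0.85 and 0.35, and 53 of the 89 were those of the single melanoma-like cell. Cells with neither or both kinds of transcript were in neither split.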

How the results depend on the processing

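For 24 results, 286 alternatives were run. Of these, 190 stayed close to the value reported, 16 turned the sign of a value whose interval excluded 0, and 80 moved beyond the interval in another way. Close meant within the counting interval. For the percents of genes past 2-fold, which have no interval, it meant within a set fold. In all, 33 changed sign, 17 of them for values whose interval held 0. Leaving out melanoma-like cells, neutrophil-like cells or the Arg1-high cluster 6, and giving both libraries the cluster mix of the control, were chosen after seeing the data. No paired analysis was possible because each group is 1 pool, so nothing pairs the libraries and no spread between mice is known. For neutrophil-like cells the number of cells in the library labelled knockout limits every level.

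All values here are log2 ratios unless a unit is given. Over all kept cells, a 5% mitochondrial limit gave -0.83 for Cxcl2, -2.37 for Cxcr2, -1.17 for Csf3r and -4.51 for the neutrophil-like share (-3.74 as reported, 13.8% against 0.606% of cells). In the control that limit kept 430 of 539 neutrophil-like cells but left 81 B-cell-like cells, against 1441 as reported. The 13.8% is thus a share of a smaller total. A 20% limit gave -0.73 for Cxcl2, keeping doublets -0.69 and median-ratio scaling -0.59. A pseudocount of 1 CPM gave -3.01 for Cxcr2 and -1.12 for Csf3r. The mean over cells of each cell's CPM gave -1.51 for Cxcl2, -3.15 for Cxcr2 and -2.17 for Csf3r. Cells with Xist gave 0.14 for Cxcl2, 0.78 for Cxcl3, 0.55 for Ppbp, -1.08 for Cxcr2, -0.50 for Csf3r and -3.05 for the share. Cells with Y-linked UMIs gave -1.18 for Cxcl2, -1.28 for Cxcr2, -0.45 for Csf3r and -3.23 for the share. Without melanoma-like cells, Cxcl2 was -0.60 and Cxcr2 -2.15. Without neutrophil-like cells, Cxcl2 was 0.01 (0.014), Cxcl3 0.26, Csf3r 0.06 (0.057) and Cxcr2 -0.31.

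In mononuclear phagocytes, a 5% mitochondrial limit gave -0.40 for Cxcl2. Keeping doublets gave -0.27 for Cxcl2, -0.04 (-0.037) for Cxcl3 and -1.60 for Ppbp, and gating cells one by one gave -0.23, -0.01 (-0.0062) and -1.56. The mean over cells gave -0.42 for Cxcl2, -0.30 for Cxcl3, -1.93 for Ppbp and 0.03 (0.026) for Cxcr4. Cells with Xist gave -0.33 for Cxcl1, 0.35 for Cxcl2, 1.16 for Cxcl3 and 0.50 for Ppbp, and shares of cells with a UMI that were 2.22 percentage points higher for Cxcl3 and 1.07 higher for Ppbp. Cells with Y-linked UMIs gave -1.39 for Cxcl2 and -2.25 for Cxcl3. Without cluster 6 the values were 0.75 for Cxcl1, 0.27 for Cxcl2, 1.57 for Cxcl3 and -0.28 for Ppbp. With the cluster mix of the control they were -0.14 for Cxcl2, 0.06 (0.056) for Cxcl3, -1.53 for Ppbp and 0.29 for Cxcr4. The neutrophil-like share and Cxcr2 over all kept cells were lower in the library labelled knockout under every alternative run. The cause of the other changes was not tested.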

Other observations

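In cells of the dendritic classes the ligands were lower than in mononuclear phagocytes. Cxcl2 in cDC2-like cells was 210 CPM (196 to 225) in the control and 199.97 CPM (185 to 216) in the library labelled knockout, with a UMI in 21.5% and 21.2% of cells. Its log2 ratio of -0.07 was not stable: under the alternatives run it lay between -0.37 at resolution 2 and 1.23 in cells with Xist. Ppbp in cDC2-like cells was 11.8 and 1.91 CPM, from 49 and 6 UMIs. In cDC1-like cells Cxcl2 was 25.7 and 9.97 CPM, from 41 and 14 UMIs, and 20 of the 41 lay in 1 cell. Cxcr4 in the cycling macrophage-like cluster 18 was 46.0 and 17.3 CPM, a ratio of 0.377 (0.255 to 0.553), while in cluster 6 its ratio was 1.77 (1.51 to 2.09).

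Single cells stood out for the ligands in both libraries. In cluster 6 of the library labelled knockout, 1 cell held 313 of the 4148 Cxcl3 UMIs of the library, with 331 Cxcl2 and 82 Ppbp UMIs, and another held 342 Cxcl2, 134 Cxcl3 and 120 Ppbp UMIs. In the control, the cell richest in Ppbp had 188 Ppbp, 16 Cxcl2 and 17 Cxcl3 UMIs. In mononuclear phagocytes a Ppbp UMI was found in 31.3% of control cells with a Cxcl3 UMI and 2.89% of those without, and in 21.9% and 1.84% in the library labelled knockout.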
